A study of Homo sapiens with 12 samples.

Results

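The G2/M and mitosis genes are 48 genes whose products carry a cell from the end of DNA replication through division, and they were picked by symbol from the gene count matrix, where every symbol was found among 42157 genes counted. Of these genes, 24018 had a read in some library and 13696 passed the filter on low counts, all 48 of the G2/M and mitosis genes included. Polyadenylated RNA was sequenced from HL-60, an established human acute myeloid leukemia cell line, after 3 h with the vehicle DMSO, with 1 µM DNR (daunorubicin, an anthracycline that poisons topoisomerase II), with 0.5 µM ML-792 (which blocks the SUMO-activating enzyme and so the attachment of the ubiquitin-like protein SUMO) or with ML-792 and DNR together at those doses. There were 3 libraries in each of the 4 groups. All groups share this single line, the medium and the treatment time, and the study's methods describe the replicates as coming from independent experiments.

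The libraries held 28647951 to 46451654 reads in genes, and no G2/M gene had fewer than 158 reads in any library. The 10 myeloid markers, such as MPO, summed to between 10700 and 13900 CPM (read counts relative to the reads in genes of a library, with library sizes scaled by the trimmed mean of M values, TMM). Most of this sum was MPO, at a mean of 11260 CPM in DMSO. The lymphocyte list summed to between 6.51 and 17.2 CPM with CD3E and MS4A1 at 0, and most of its sum was PAX5, at a mean of 11.2 CPM in DMSO. The erythroid and megakaryocyte list summed to between 0.604 and 1.64 CPM with HBA1, HBB and PF4 at 0 and KLF1 at 0.593 CPM in DMSO. The stromal and epithelial list summed to between 3.62 and 5.99 CPM with COL1A2, EPCAM and KRT19 at 0. In it PECAM1 and KRT8 were at 2.78 and 2.51 CPM in DMSO. The replicate 1 libraries held 4.007% to 6.367% mitochondrial reads and those of replicates 2 and 3 held 2.485% to 3.478%.

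Entry into mitosis is driven by CDK1 bound to cyclins A and B, after CDC25 phosphatases remove inhibitory phosphates and with help from PLK1 and Aurora kinases. Kinetochores then attach chromosomes to a spindle that kinesin motors and crosslinkers build, the spindle checkpoint (MAD2, BUB1, BUBR1, TTK) restrains the anaphase-promoting complex (APC/C) until all are attached, and cleavage follows. Many of these genes are transcribed late in the cycle, and their promoters commonly carry a CDE/CHR element read by MuvB complexes together with MYBL2 and FOXM1, and CCAAT boxes bound by NF-Y. DNA damage is known to hold cells before mitosis. In bulk RNA, fewer cells in G2 and mitosis and less of these RNAs per cell cannot be told apart.

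The promoters of 41 of the 48 genes, with 53 transcription starts, were found in a RefSeq table on GRCh38.p14 (250 bases before to 50 bases after each start). The table had no entry for AURKA, TTK, BUB3, UBE2C, BIRC5, TPX2 or FOXM1. The letters searched on both strands were TTTGAA or TTCGAA for the CHR and CCAAT for the CCAAT box. A CHR match was found in 64.2% of the 53 promoters and in 16.4% of all 35116, a CCAAT match in 71.7% and 34.6%, and both in 52.8% and 6.38%. The 250 bases before the start are shown for the 3 genes of the set with the largest falls after DNR (CENPA, KIF20A and CCNF), for CENPE, which also fell 2-fold and held neither match in its 300 bases, and for CDK1, which held both and did not pass the test. These were chosen with their values known. Capitals mark the CHR and CCAAT matches on either strand.
CENPA, chr2:26785806-26786055, plus strand: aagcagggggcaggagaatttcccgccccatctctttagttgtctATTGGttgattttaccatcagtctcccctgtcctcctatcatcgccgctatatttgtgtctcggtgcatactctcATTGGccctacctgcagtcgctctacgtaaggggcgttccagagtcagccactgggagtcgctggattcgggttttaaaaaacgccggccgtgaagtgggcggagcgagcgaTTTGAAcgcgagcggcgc
KIF20A, chr5:138178862-138179111, plus strand: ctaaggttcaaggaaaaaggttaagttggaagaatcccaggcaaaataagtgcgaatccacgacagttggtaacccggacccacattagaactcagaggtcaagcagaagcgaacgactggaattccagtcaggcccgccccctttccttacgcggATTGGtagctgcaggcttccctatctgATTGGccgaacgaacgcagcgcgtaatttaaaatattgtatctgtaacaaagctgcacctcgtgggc
CCNF, chr16:2429197-2429446, plus strand: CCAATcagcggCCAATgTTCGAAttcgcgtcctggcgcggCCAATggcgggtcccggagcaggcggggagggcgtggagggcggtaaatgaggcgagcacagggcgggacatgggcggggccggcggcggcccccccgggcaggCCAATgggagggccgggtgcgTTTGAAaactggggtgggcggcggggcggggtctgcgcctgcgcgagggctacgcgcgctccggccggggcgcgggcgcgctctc
CENPE, chr4:103198344-103198593, minus strand: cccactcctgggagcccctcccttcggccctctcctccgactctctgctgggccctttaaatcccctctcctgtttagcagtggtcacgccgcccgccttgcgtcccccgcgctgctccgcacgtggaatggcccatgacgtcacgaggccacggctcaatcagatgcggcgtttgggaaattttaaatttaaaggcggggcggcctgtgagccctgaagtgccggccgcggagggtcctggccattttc
CDK1, chr10:60778228-60778477, plus strand: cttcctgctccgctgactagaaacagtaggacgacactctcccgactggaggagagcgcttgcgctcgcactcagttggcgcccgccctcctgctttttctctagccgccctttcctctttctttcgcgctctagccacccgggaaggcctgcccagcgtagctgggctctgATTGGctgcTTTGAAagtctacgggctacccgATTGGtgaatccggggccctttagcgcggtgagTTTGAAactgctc

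Counting back from the transcription start, CENPA held a CHR match from -18 and CCAAT matches from -205 and -130, and KIF20A held CCAAT matches from -94 and -67 and no CHR letters. In CCNF the CHR matches began at -233 and -85 and 4 CCAAT matches lay between -250 and -106. CDK1, at the start shown, held CHR matches from -69 and -13 and CCAAT matches from -78 and -46. The printed bases of CENPE held neither set of letters. Of the genes with a promoter entry that fell 2-fold, 8 held a CHR match and 2 did not, where 31 of all 41 held one. A CCAAT match was held by 6 of those that fell 2-fold and not by 4, where 33 of the 41 held one. A match is a description of the sequence and not of a bound factor.

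After 3 h of DNR alone, 10 of the 48 G2/M genes fell at least 2-fold against DMSO with an adjusted p under 0.05, and none rose. Over all tested genes, 2.91% fell and 4.07% rose by this rule. At an adjusted p under 0.05 alone, 32 fell, 16 did not pass and none rose, where 15.7% of all tested genes fell and 14.3% rose. In edgeR 35 of the 48 had an unadjusted p under 0.05, where 5548 of all 13696 tested genes did. DESeq2 and limma voom also called no rise. For 31 of the 48 all DNR libraries lay below all DMSO libraries, where 23.6% of all tested genes did so, and for 1, MYBL2, all lay above, where 23% did so. The genes that fell 2-fold were CENPA, KIF20A, CCNF, KIF23, PLK1, CENPE, ANLN, BUB1B, KIF18A and NDC80. The median log2 change of the 48 was -0.58, where that of all tested genes was 0.01, and 45 of the 48 lay below 0.

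Summed over the 48 genes, the level was 6713, 5658 and 6894 CPM in DMSO replicates 1, 2 and 3 and 4586, 4532 and 4724 CPM in DNR. With ML-792 alone it was 6513, 5685 and 6562 CPM, and with ML-792 and DNR together 4759, 4703 and 4889 CPM. Every library with DNR lay below every library without it. DMSO replicate 2 was the lowest of its group for 47 of the 48 genes, where it was the lowest for 37.4% of all tested genes. ML-792 replicate 2 was the lowest of its group for 38 of the 48, where it was the lowest for 30% of all tested genes. In each replicate number the DNR library still lay below the DMSO library. Without DMSO replicate 2 the counts for DNR against DMSO were 12 genes down 2-fold and 32 down by adjusted p. Of 13985 tested genes, 417 and 1898 fell by these rules.

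**Figure D1:**
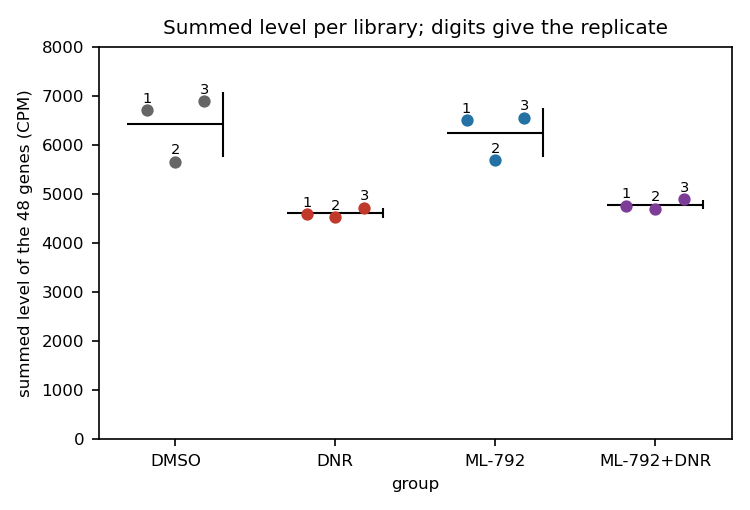
Summed level of the 48 G2/M and mitosis genes (CPM, vertical axis) in each library, by group, with points for libraries, digits for the replicate, lines for group means and bars for the SD. The 6 libraries with DNR sit between 4532 and 4889 CPM, all below the 6 without it, and replicate 2 is the lowest library in every group.

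Among the cyclins, CDK1 and its activators, 3 of 7 fell. CCNF, the F-box protein cyclin F, was at 57.7, 43.4 and 64.1 CPM in DMSO replicates 1, 2 and 3 and at 16.6, 17.7 and 17.8 CPM in DNR, a log2 change of -1.67 ± 0.15 (SE, n = 3 a group, adjusted p = 3.83e-06). CCNB1, the mitotic cyclin B1, was at 162, 130 and 191 CPM in DMSO and at 80.5, 80.9 and 88.9 CPM in DNR, a log2 change of -0.95 ± 0.12 (adjusted p = 9.10e-05). The groups did not overlap for either gene, and CCNB1 lay just short of 2-fold. CDK1, the kinase that cyclin B1 activates, was at 271, 234 and 272 CPM in DMSO and at 254, 239 and 258 CPM in DNR. Its log2 change was -0.05 with a 95% interval from -0.22 to 0.12, and the groups overlapped. CCNA2 (cyclin A2) fell by 0.50 on the log2 scale. The values for CCNB2 (cyclin B2), CDC25B and CDC25C, the last 2 being phosphatases that activate CDK1, were -0.33, -0.19 and -0.55 and did not pass.

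Of the mitotic kinases, 6 of 8 fell. PLK1, which acts at centrosomes, kinetochores and the midzone, was at 114, 92.6 and 131 CPM in DMSO and at 39.1, 46.1 and 51.5 CPM in DNR, a log2 change of -1.31 ± 0.17 (adjusted p = 0.000107). BUB1B, which encodes the checkpoint protein BUBR1, was at 157, 133 and 150 CPM in DMSO and at 54.9, 83.7 and 64.0 CPM in DNR, a log2 change of -1.12 ± 0.15 (adjusted p = 9.09e-05). No DNR library reached a DMSO library for these genes, and DNR replicate 2 was the highest of its group for BUB1B. Without DNR replicate 1 the BUB1B change was -0.99. AURKA, the spindle pole kinase, was at 158, 128 and 175 CPM in DMSO and at 103, 108 and 102 CPM in DNR, a log2 change of -0.56 ± 0.11 (adjusted p = 0.00247). The AURKA groups did not overlap. TTK and BUB1, which start checkpoint signalling, fell by 0.75 and 0.74 on the log2 scale, and AURKB, the kinase of the chromosomal passenger complex, fell by 0.44 (adjusted p = 0.0401). The values for PLK4, which starts centriole duplication, and NEK2, which separates centrosomes, were -0.01 and -0.09 and did not pass.

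Of the checkpoint, APC/C and separase genes, 1 of 6 fell. The checkpoint kinases TTK, BUB1 and BUB1B, which fell, are counted with the mitotic kinases and not in this group. CDC20, the activator through which the checkpoint holds the APC/C, was at 169, 158 and 189 CPM in DMSO and at 134, 132 and 127 CPM in DNR, a log2 change of -0.40 ± 0.10 (adjusted p = 0.0093). All 3 DNR libraries lay below all 3 DMSO libraries. The values for MAD2L1 and BUB3 (checkpoint), UBE2C (the ubiquitin-conjugating enzyme of the APC/C), PTTG1 (securin) and ESPL1 (separase) were -0.10, -0.08, -0.18, -0.04 and 0.04 and did not pass. The interval of UBE2C was wide, from -0.81 to 0.46.

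All 3 chromosomal passenger subunits fell. BIRC5, or survivin, was at 134, 119 and 155 CPM in DMSO and at 102, 104 and 121 CPM in DNR, a log2 change of -0.32 ± 0.11 (adjusted p = 0.0365). DNR replicate 3 overlapped DMSO replicate 2 for BIRC5. INCENP, the scaffold of the complex, and CDCA8, or borealin, fell by 0.67 and 0.47 on the log2 scale. The calls of BIRC5, AURKB and HMMR were each lost when DMSO replicate 1 or 3 or DNR replicate 1 or 2 was left out, with adjusted p from 0.0621 to 0.213.

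Centromere and kinetochore genes fell in 4 of 5 cases. CENPA, the histone H3 variant that marks centromeres (chr2:26987157-27023935 on GRCh37), was at 21.8, 16.4 and 25.2 CPM in DMSO and at 5.51, 5.83 and 5.52 CPM in DNR, a log2 change of -1.91 ± 0.19 (adjusted p = 1.01e-05). CENPE, the kinetochore kinesin that moves chromosomes to the spindle equator, was at 101, 79.6 and 109 CPM in DMSO and at 44.6, 36.6 and 45.3 CPM in DNR, a log2 change of -1.19 ± 0.13 (adjusted p = 2.51e-05). NDC80, the microtubule-binding subunit of the outer kinetochore, was at 141, 112 and 151 CPM in DMSO and at 62.1, 62.6 and 73.8 CPM in DNR, a log2 change of -1.02 ± 0.12 (adjusted p = 4.16e-05). The groups were apart for all 3 genes, and the DNR libraries of CENPA lay closer together than its DMSO libraries. NDC80 fell short of 2-fold without DMSO replicate 3 (-0.94), DNR replicate 1 (-0.98) or DNR replicate 2 (-0.99). CENPF, a large kinetochore protein, fell by 0.85 on the log2 scale, whereas the value for NUF2, the partner of NDC80 in the same complex, was -0.02 with an interval from -0.23 to 0.19. The difference between NDC80 and NUF2 was not tested.

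All 8 kinesins fell, 3 of them 2-fold. KIF20A, a midzone motor needed for cytokinesis, was at 58.7, 38.5 and 64.2 CPM in DMSO and at 17.1, 13.99 and 16.3 CPM in DNR, a log2 change of -1.77 ± 0.19 (adjusted p = 1.79e-05). KIF23, the motor of the centralspindlin complex, was at 109, 84.6 and 99.6 CPM in DMSO and at 32.6, 39.6 and 31.2 CPM in DNR, a log2 change of -1.50 ± 0.15 (adjusted p = 8.87e-06). KIF18A, which limits chromosome oscillation, was at 37.4, 26.8 and 37.5 CPM in DMSO and at 16.7, 16.01 and 17.3 CPM in DNR, a log2 change of -1.03 ± 0.14 (adjusted p = 0.000138). No library of one group reached the other for these motors, and KIF18A fell short of 2-fold without DMSO replicate 1 (-0.97) or DMSO replicate 3 (-0.96). KIF14 and KIF20B (cytokinesis), KIF11 (spindle bipolarity), KIF4A (chromosome arms and midzone) and KIF2C (a microtubule depolymerase) fell by 0.97, 0.90, 0.63, 0.43 and 0.36 on the log2 scale.

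Of the spindle and cytokinesis genes, 7 of 9 fell. ANLN, or anillin, which organises the contractile ring, was at 96.6, 73.6 and 88.0 CPM in DMSO and at 36.1, 42.1 and 37.0 CPM in DNR, a log2 change of -1.16 ± 0.13 (adjusted p = 2.13e-05), with no overlap. ASPM (spindle poles), DLGAP5 and TPX2 (spindle assembly), ECT2 (the RhoA activator of cleavage), HMMR and PRC1 (the midzone crosslinker) fell by 0.82, 0.76, 0.73, 0.69, 0.61 and 0.60 on the log2 scale. The values for TACC3 and NUSAP1, both microtubule-associated, were -0.21 and 0.16 and did not pass. Neither transcription factor passed. FOXM1 was at 122, 91.9 and 103 CPM in DMSO and at 99.7, 84.3 and 83.2 CPM in DNR, a log2 change of -0.25 (adjusted p = 0.131). MYBL2, or B-MYB, was at 191, 173 and 180 CPM in DMSO and at 215, 206.5 and 196 CPM in DNR, a log2 change of 0.18 (adjusted p = 0.118), with every DNR library above every DMSO library. The FOXM1 groups overlapped.

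**Figure D2:**
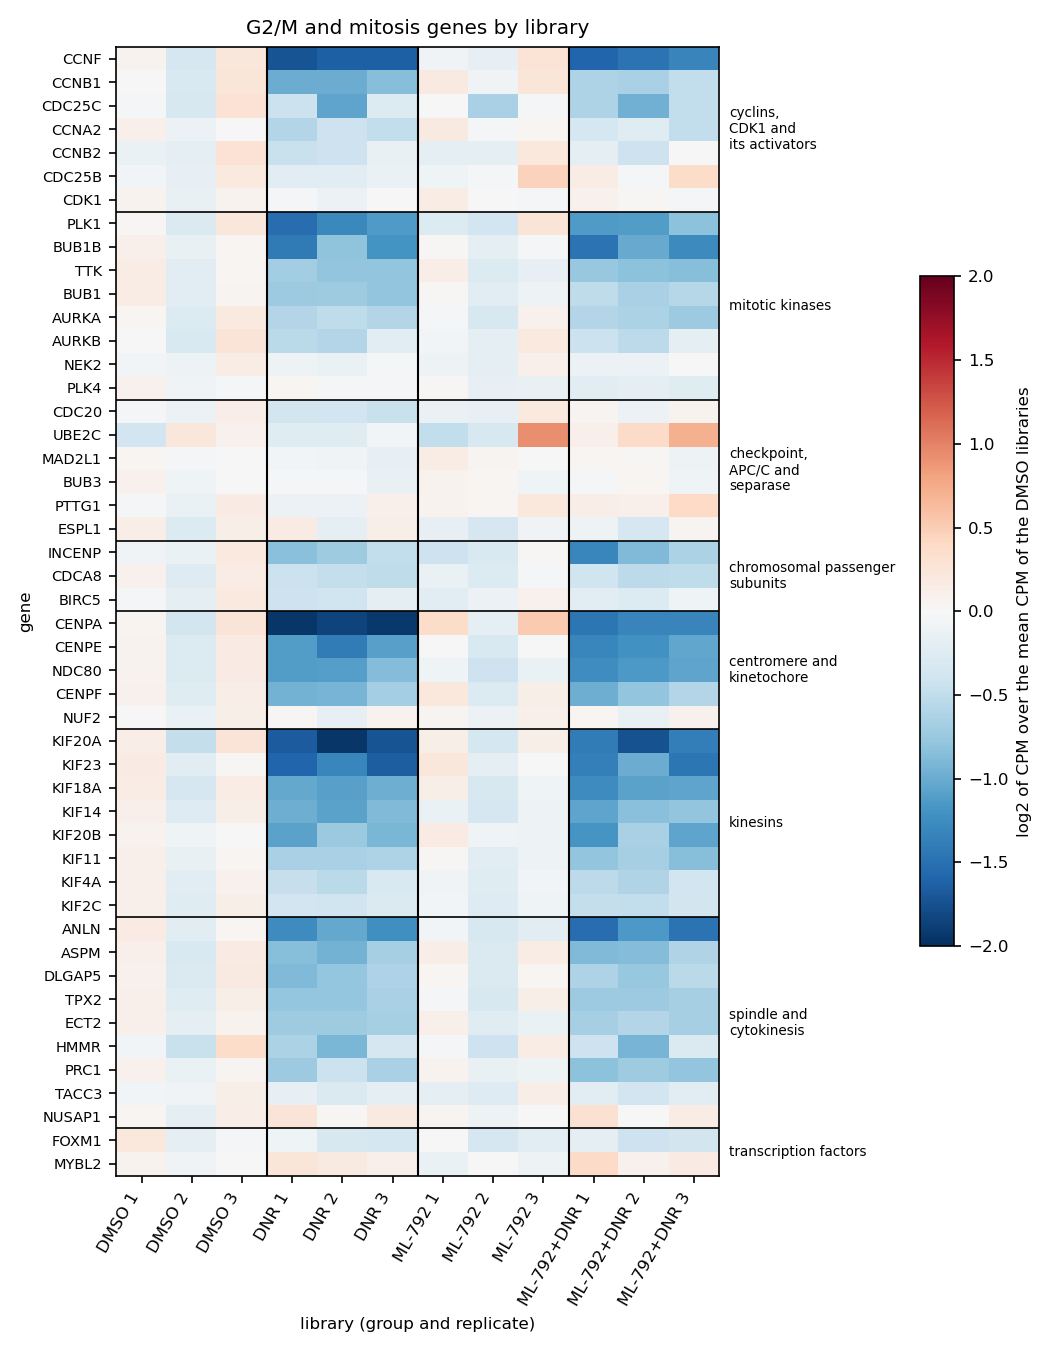
Heat map of the 48 genes (rows, by role and then by change after DNR) in the 12 libraries (columns), coloured by the log2 of CPM over the mean of the DMSO libraries, blue lower and red higher. The columns with DNR are blue for kinesins, most kinases (the checkpoint kinases TTK, BUB1 and BUB1B among them) and most kinetochore genes. They are pale for the checkpoint and APC/C group, which leaves those kinases out, and for the transcription factors. DMSO replicate 2 is bluer than the other DMSO columns.

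**Figure D3:**
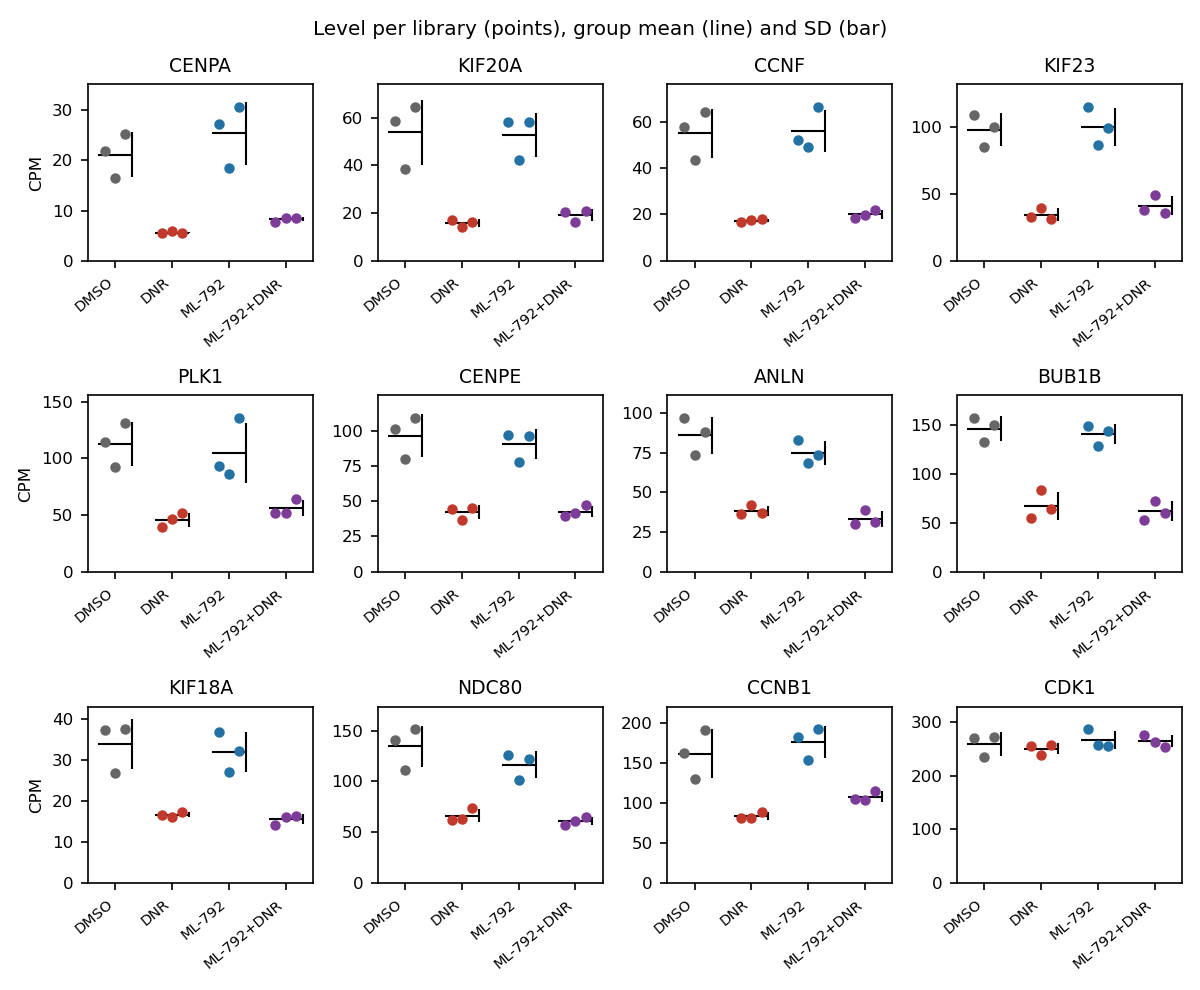
CPM (vertical axis, from 0) in each library for the 10 genes that fell 2-fold and for CCNB1 and CDK1, by group, with points for replicates 1, 2 and 3 from left to right, lines for means and bars for the SD. In the first 11 panels both groups with DNR lie below both groups without it, and for CDK1 the 4 groups overlap.

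ML-792 alone moved none of the 48 genes past the test in either direction. Over all tested genes 0.0073% fell and 0.073% rose at 2-fold, and 0.0584% fell and 0.183% rose by adjusted p. For none of the 48 did all ML-792 libraries lie below or above all DMSO libraries, where 5.98% and 4.51% of all tested genes did so. In edgeR 0 of the 48 had an unadjusted p under 0.05, where 697 of all tested genes did, and DESeq2 and limma voom called 0 of the 48. The log2 changes ran from -0.22 for INCENP to 0.26 for CENPA, with a median of -0.06. CENPA was at 27.2, 18.4 and 30.5 CPM with ML-792, a range that overlapped DMSO, and its interval ran from -0.11 to 0.64. Changes anywhere inside such intervals remain compatible with these libraries.

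With ML-792 and DNR together, 10 of the 48 genes fell 2-fold against DMSO and 32 by adjusted p, and none rose, where 2.56% and 18.4% of all tested genes fell and 3.93% and 17% rose. All libraries with both drugs lay below all DMSO libraries for 31 of the 48 (24.5% of all tested genes) and above them for 1 (24.2%). This comparison shares its DMSO libraries with DNR against DMSO. The values side by side, DNR first, were -1.91 and -1.36 for CENPA, -1.67 and -1.46 for CCNF, -1.77 and -1.50 for KIF20A and -1.50 and -1.25 for KIF23. They were -1.31 and -1.01 for PLK1, -1.19 and -1.18 for CENPE, -1.16 and -1.37 for ANLN and -1.12 and -1.24 for BUB1B. For KIF18A they were -1.03 and -1.13 and for NDC80 -1.02 and -1.14. Each of these 10 values passed at 2-fold, though that of PLK1 with both drugs was -0.90, -0.97 and -0.97 without DMSO replicate 3, both-drug replicate 1 and both-drug replicate 2. CDC25C, PLK4, TACC3 and FOXM1 passed with both drugs at -0.69, -0.22, -0.27 and -0.32. Of these, CDC25C was lost without DMSO replicate 1 or 3 or both-drug replicate 1 or 2 (adjusted p from 0.0685 to 0.131), and PLK4 without DMSO replicate 1 or both-drug replicate 1 or 3 (0.0699 to 0.1). FOXM1 was lost without DMSO replicate 1 or 3, DNR replicate 3 or both-drug replicate 2 or 3 (0.0502 to 0.2). TACC3 was lost without any 1 of the DMSO, DNR or both-drug libraries (0.0545 to 0.16). The values for AURKB, BIRC5, CDC20 and HMMR with both drugs were -0.38, -0.19, 0.00 and -0.52 and did not pass, and none of these 8 genes passed the test of the difference between both drugs and DNR alone in the fit without a block. With the replicate number as a block, which the pairing check allowed here, 36 genes fell, AURKB, BIRC5 and HMMR among them. The 3 that rose were MYBL2 (0.21), PTTG1 (0.22) and NUSAP1 (0.15). The block raised calls over all 13696 tested genes too, from 2515 to 3347 down and from 2328 to 3361 up.

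DNR in cells that also had ML-792 was compared with ML-792 alone, a comparison that shares no library with DNR against DMSO. In it 8 of the 48 genes fell 2-fold and 28 by adjusted p, where 2.66% and 17.4% of all tested genes fell. By adjusted p 1 rose and at 2-fold none did, where 16.3% and 3.68% of all tested genes rose. The both-drug libraries all lay below the ML-792 libraries for 30 of the 48 (21.5% of all tested genes) and above them for 1 (21.3%). Those 8 made up 80% of the 10 genes that fell 2-fold with DNR alone, without PLK1 (-0.91) and NDC80 (-0.94), which passed by adjusted p. The 28 made up 87.5% of the 32, without AURKB, BIRC5, CDC20 and HMMR. With the replicate block AURKB (adjusted p = 0.00094) and HMMR (0.000508) also fell in this comparison, and BIRC5 and CDC20 did not pass. Over all tested genes, 228 were shared, 57.1% of the 399 that fell 2-fold with DNR alone and 62.6% of the 364 here. Across the 48 genes the log2 changes of the 2 comparisons had a Pearson r of 0.967 and a Spearman rho of 0.96, and across all 13696 tested genes Pearson r was 0.864. Genes are not independent replicates, and no p is given.

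CENPA was at 27.2, 18.4 and 30.5 CPM with ML-792 and at 7.78, 8.44 and 8.51 CPM with both drugs, a log2 change of -1.62 ± 0.18 (adjusted p = 4.49e-05). CCNF was at 52.2, 49.4 and 66.3 CPM and at 18.3, 19.9 and 22.1 CPM, a log2 change of -1.48 ± 0.15. KIF20A was at 58.2, 42.2 and 58.0 CPM and at 20.4, 16.1 and 20.7 CPM, a log2 change of -1.47 ± 0.18. In all 3 cases the lowest library with ML-792 alone lay above the highest with both drugs. KIF23 was at 114, 86.2 and 98.8 CPM and at 37.9, 49.0 and 35.9 CPM, a log2 change of -1.28 ± 0.14. BUB1B was at 149, 129 and 144 CPM and at 52.9, 72.9 and 60.4 CPM, a log2 change of -1.18 ± 0.15. ANLN was at 83.1, 68.6 and 73.3 CPM and at 29.9, 38.8 and 31.1 CPM, a log2 change of -1.17 ± 0.13. Replicate 2 was the lowest of the ML-792 libraries and the highest with both drugs for these 3 genes, and the groups did not overlap.

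CENPE was at 96.9, 78.1 and 96.4 CPM with ML-792 and at 39.2, 41.7 and 47.1 CPM with both drugs, a log2 change of -1.08 ± 0.13. KIF18A was at 36.8, 27.1 and 32.1 CPM and at 14.2, 16.1 and 16.3 CPM, a log2 change of -1.04 ± 0.14. Both sets of groups were apart, and KIF18A fell short of 2-fold without ML-792 replicate 1 (-0.93) or both-drug replicate 1 (-0.99). PLK1 was at 93.2, 86.5 and 135 CPM and at 51.5, 52.2 and 64.0 CPM. NDC80 was at 127, 101 and 122 CPM and at 57.0, 60.7 and 65.1 CPM. ML-792 replicate 3 stood above the other 2 for PLK1. CDK1 was at 286, 258 and 255 CPM and at 275, 263 and 253 CPM, a log2 change of -0.01, and its groups overlapped. FOXM1 was at 105, 84.2 and 90.7 CPM and at 93.1, 79.2 and 81.8 CPM, a log2 change of -0.14 that did not pass. AURKA was at 150, 123 and 163 CPM and at 102, 99.7 and 93.1 CPM, a log2 change of -0.56 ± 0.11. MYBL2 was the gene that rose, from 166, 183 and 168 CPM to 236, 192 and 203 CPM, a log2 change of 0.29 ± 0.08 (adjusted p = 0.0184). Its highest library was replicate 1 with both drugs, and without that library the change was 0.18 (adjusted p = 0.122). The call was also lost without ML-792 replicate 1 (0.26, adjusted p = 0.0649) or ML-792 replicate 3 (0.26, adjusted p = 0.0517). UBE2C passed without ML-792 replicate 3, at 0.82 (adjusted p = 0.00535), against 0.24 with it. All 8 kinesins fell here too. None of the checkpoint, APC/C and separase group passed, a group that leaves out the checkpoint kinases TTK, BUB1 and BUB1B. CDCA8 was lost without ML-792 replicate 3 (adjusted p = 0.0527) or both-drug replicate 3 (0.0592), and KIF2C without ML-792 replicate 1 (0.0717) or both-drug replicate 1 (0.0606). With the replicate block 31 genes fell and 2 rose, NUSAP1 being the second (0.16, adjusted p = 0.0389), while over all tested genes calls went from 2389 to 3187 down and from 2237 to 3203 up.

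**Figure D4:**
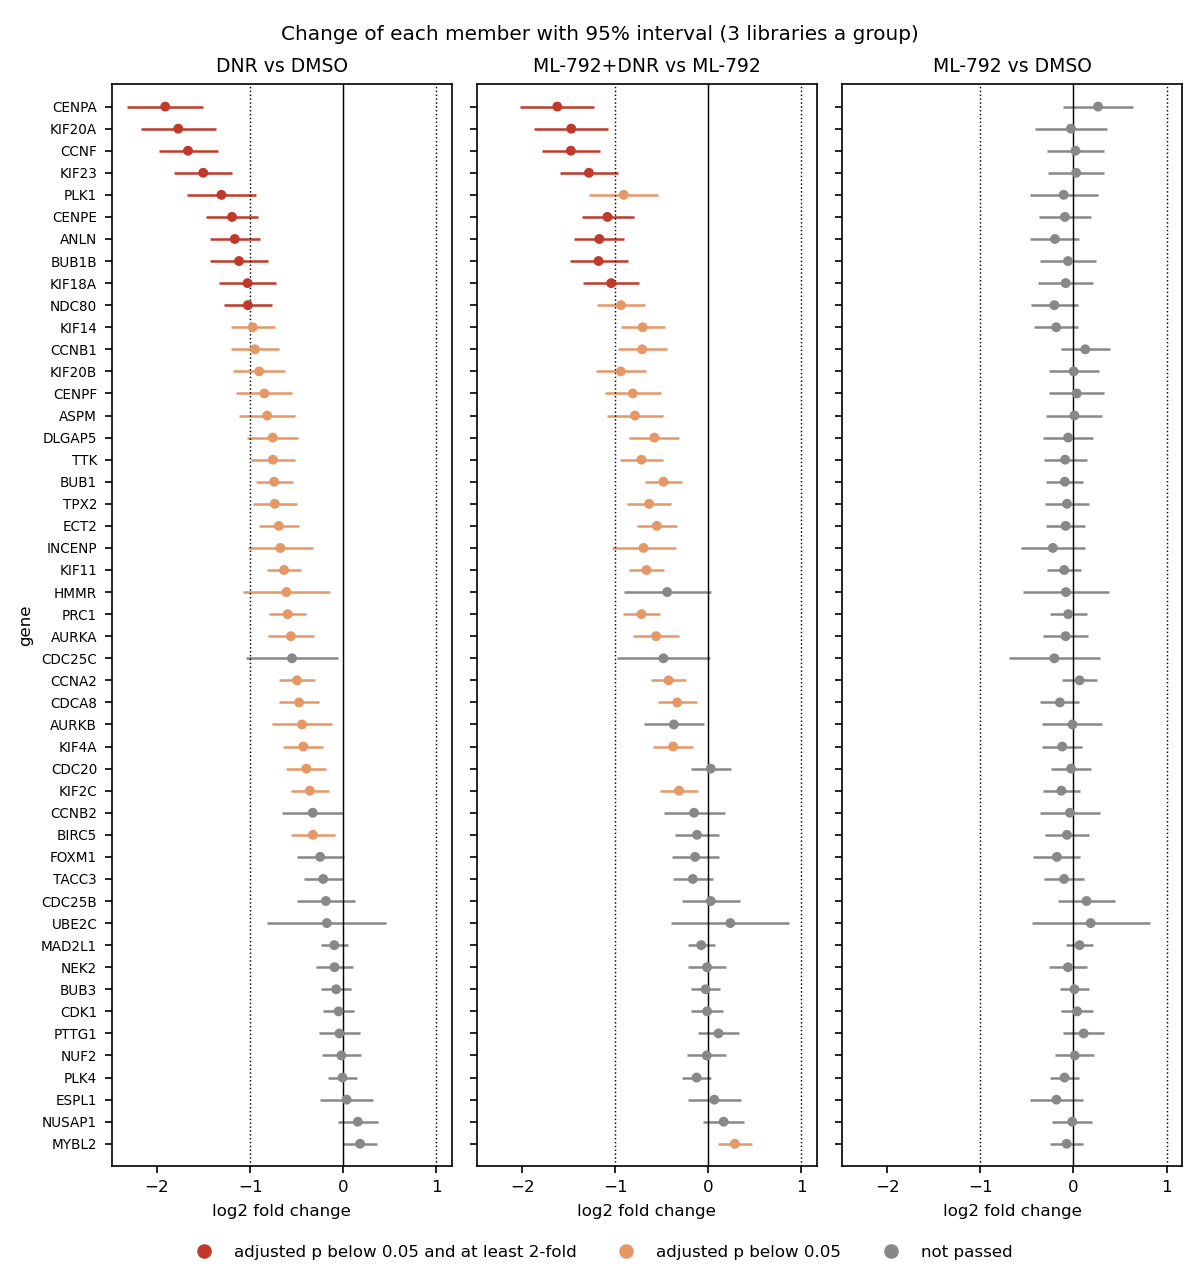
Log2 fold change (horizontal axis) of each of the 48 genes with its 95% interval, in DNR against DMSO, in both drugs against ML-792, and in ML-792 against DMSO, coloured by whether it passed adjusted p and 2-fold, adjusted p alone or neither, with dotted lines at 2-fold. The first 2 panels run alike from CENPA at the top to MYBL2 at the bottom, and all intervals in the third panel include 0.

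Whether ML-792 changed what DNR did to these genes was tested in 2 ways. Comparing both drugs with DNR alone, none of the 48 passed at 2-fold or by adjusted p. Over all tested genes 0.102% fell and 0.0949% rose at 2-fold, and 0.489% fell and 0.256% rose by adjusted p. In edgeR 6 of the 48 had an unadjusted p under 0.05, where 1768 of all 13696 tested genes did, a like share. All libraries with both drugs lay below all DNR libraries for 2 of the 48 (9.86% of all tested genes) and above them for 8 (8.89%). The log2 changes ran from -0.24 for INCENP to 0.60 for UBE2C, with a median of 0.03. CCNB1 was at 105, 103 and 115 CPM with both drugs, above its 80.5, 80.9 and 88.9 CPM with DNR, a log2 change of 0.36 with an interval from 0.10 to 0.63 (adjusted p = 0.215). CDC20 was at 179, 158 and 181 CPM with both drugs, a log2 change of 0.40 with an interval from 0.18 to 0.61 (adjusted p = 0.0891). CENPA changed by 0.55 with an interval from 0.15 to 0.96 (adjusted p = 0.222). For these genes every library with both drugs was above every library with DNR alone. The replicate numbers paired these libraries, and with the replicate block 3 genes passed: CCNB1 (0.36, adjusted p = 0.026), CDC20 (0.39, adjusted p = 0.0184) and PTTG1 (0.26, adjusted p = 0.0174). Over all tested genes the block raised calls from 67 to 314 down and from 35 to 226 up. CDC20 also passed with DESeq2 and, without ML-792 replicate 3 in the fit, at 0.40 (adjusted p = 0.0364).

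The interaction, which asks whether the DNR change differs between cells without and with ML-792, passed for none of the 48 genes and for none of all tested genes in edgeR with the count filter and no block, and DESeq2 and limma voom also called 0 of the 48. Of the 48, 1 had an unadjusted p under 0.05, CDC20 at 0.42 (unadjusted p = 0.0101), and 493 of all tested genes did. Over all genes it passed for 11 lower and 3 higher with DESeq2, for 10 lower and 3 higher in edgeR with no count filter, and for 1 lower with the block. Of the 48 values 40 lay above 0, where above 0 means a DNR change less negative or more positive with ML-792. Their median was 0.07, where that of all tested genes was 0.00346. With 1 library left out, this median ran from 0.0155 (without ML-792 replicate 2) to 0.183 (without DMSO replicate 2). The values were not tested as a set. The interval of CENPA ran from -0.26 to 0.84, and differences anywhere inside it remain compatible with these libraries.

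The 48 genes were spread over many lengths. By transcript length, 8 of the 16 shortest (715 to 2371 bases), 12 of the middle 16 and 12 of the 16 longest (3762 to 10863 bases) fell with DNR, with median log2 changes of -0.42, -0.60 and -0.72. The Spearman correlation of length with change was -0.27 over the 48 genes and -0.22 over 12354 tested genes with a length, and that of exon number was -0.44 and -0.16. Per kilobase of transcript in DMSO, PTTG1 stood highest at 154 CPM per kb, followed by CDK1 at 137 and CDC20 at 105, and CDC25C stood lowest at 4.85. The 3 highest were not among the genes that fell 2-fold. Of the genes with a promoter entry, 22 of 31 with a CHR match and 6 of 10 without one fell, with medians of -0.68 and -0.40, and 23 of 33 with a CCAAT match and 5 of 8 without one fell, with medians of -0.61 and -0.69. On the GRCh37 annotation 21 of the 48 genes had another gene on the opposite strand within their span and 10 had one on the same strand, PAK6 for BUB1B and SLC35F6 for CENPA among them. Whether counting used strand was not stated in the sources read here, and reads of such pairs may be mixed.

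Other genes of the pathway were counted in lists outside the 48. After DNR, 22 of 40 other mitotic entry and spindle genes fell and 5 rose, with a median of -0.38, where 15.7% of all tested genes fell and 14.3% rose. At 2-fold 8 fell and 1 rose, where 2.91% of all tested genes fell and 4.07% rose. The 8 included BUB1B-PAK6 (-1.17), which is annotated over BUB1B, a gene of the 48, on the same strand. The gene that rose was MASTL, a kinase that restrains the phosphatase opposing CDK1. It rose by 1.00 on the log2 scale from 23.2 ± 1.46 CPM to 46.4 ± 4.75 CPM. MASTL was named after its value was seen. PSRC1, a spindle protein, changed by -1.97 (22.4 ± 5.56 CPM in DMSO and 5.74 ± 0.974 CPM in DNR, SD, n = 3), CKAP2L by -1.35, G2E3 by -1.28 and BORA, which activates PLK1 through Aurora A, by -1.18. Of 34 other kinetochore and centromere genes 8 fell and 6 rose, with a median of -0.10. HJURP, the chaperone that loads CENPA, fell by 1.00 on the log2 scale, from 72.4 ± 12.8 CPM to 36.1 ± 2.01 CPM. Condensin genes split with 2 down and 2 up of 9, and APC/C subunits and regulators with 4 down and 2 up of 17. These 3 counts are not far from 15.7% down and 14.3% up over all tested genes, and no result about the lists is read from them. The most abundant of these were SMC4 (-0.24) and NCAPD2 (-0.35), and ANAPC5 (-0.09) and ANAPC1 (-0.08).

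Among 15 genes of the MuvB, DREAM and CCAAT-factor list, 2 fell and 4 rose, again not far from those shares for so few genes. NFYA, the sequence-specific subunit of NF-Y, fell by 1.32 on the log2 scale, from 109.5 ± 14.2 CPM to 43.7 ± 10.5 CPM, and MYBL1, or A-MYB, rose by 2.13 from 1.62 ± 0.17 CPM to 7.11 ± 0.522 CPM. Genes of the G1/S phase, which are expressed before and during replication, counted 14 of 30 up, 3 down and 13 that did not pass, with a median of 0.24, where 14.3% of all tested genes rose. E2F1, their activator, rose by 1.19 from 64.7 ± 8.37 CPM to 147.5 ± 1.7 CPM. The members of these lists were chosen with earlier results known and overlap in function, and the difference between lists was not tested.

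**Figure D5:**
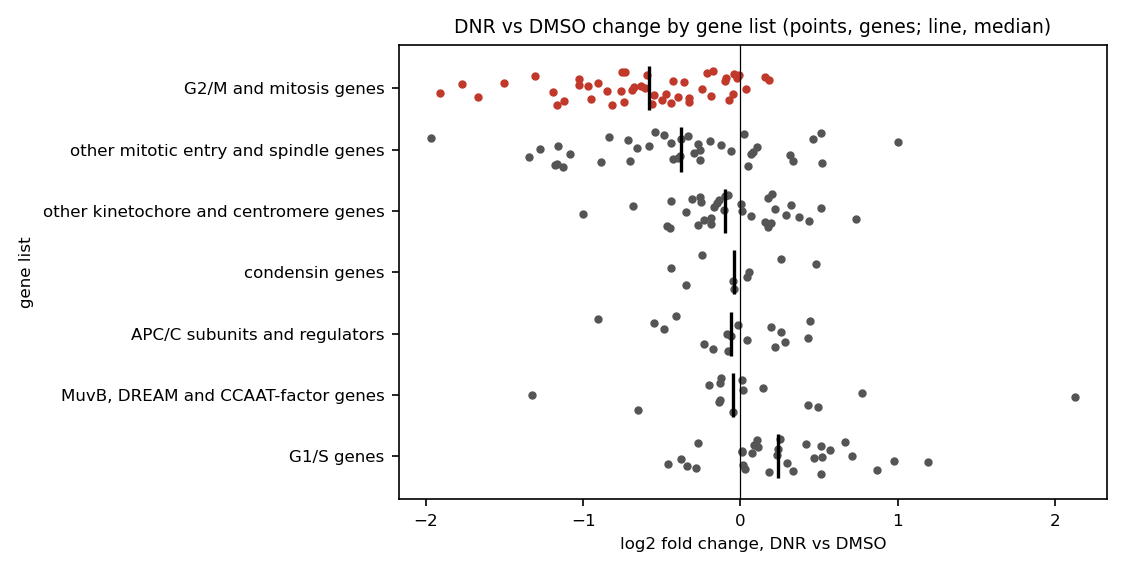
Log2 fold change after DNR against DMSO (horizontal axis) for the 48 G2/M and mitosis genes and 6 lists of other genes of the pathway, with points for genes and bars for medians. The medians are -0.58 for the 48 genes, -0.38 for other mitotic entry and spindle genes, between -0.10 and -0.04 for the kinetochore, condensin, APC/C and MuvB lists and 0.24 for G1/S genes.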

How the data were processed

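Per the submitters' processing notes the authors aligned reads with TopHat2 2.1.1 and Bowtie2 2.3.5.1 to hg19 and named HTSeq 0.11.1, Picard, Cufflinks 2.2.1 and DESeq2. The deposited matrix holds raw counts of reads per gene symbol for 12 libraries (TruSeq Stranded mRNA). The 5 summary lines of the counter were left out. Tables of normalised values and of the authors' fold changes and p-values were not used.

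Counts were tested with edgeR 4.0.16 (R 4.3.3) by the quasi-likelihood test with TMM factors, genes kept at a minimum count of 10 and a minimum total of 15, 1 group term over all libraries and Benjamini-Hochberg adjustment over all 13696 tested genes. Genes were called at an adjusted p under 0.05 and a change of at least 2-fold, and at the adjusted p alone. Levels are CPM with TMM factors. Scripts were tested on simulated data. DESeq2 1.42.0, limma 3.58.1 voom, other filters and scalings, single libraries left out and a replicate block were alternatives. The members, gene lists and tests were chosen with earlier results of these data known. Values per library were given for genes called at 2-fold and for CCNB1, CDK1, PLK1, AURKA, CDC20, BIRC5, FOXM1 and MYBL2, and in each other list for the called genes with the largest change, up to 4, or the 2 most abundant.

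Replicates of a group all differed beyond sampling noise. Deviations of same-numbered libraries from their group means correlated with r of at least 0.378 in ML-792 against DMSO and 0.13 in both drugs against DMSO. The lowest r was 0.481 in both drugs against DNR and 0.154 in both drugs against ML-792. Libraries were taken as paired in these comparisons, with the pairing resting on this check alone. The main counts, SEs and adjusted p came from the fit without a block, which leaves the pairing out. The block was used only as an alternative. Differently numbered libraries had r from -0.599 to 0.159, a range that holds the 0.13 and 0.154.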

Additional observations from a re-analysis of the deposited data

How the results depend on the processing

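Relative to DMSO, the count of genes down 2-fold after DNR ran from 8 to 12 when 1 library at a time was left out, from 9 to 11 with both drugs, and from 7 to 10 for both drugs against ML-792. Counts down by adjusted p ran from 29 to 33, 28 to 33 and 27 to 29. Over all tested genes, 13933 to 13994 of them, the 2-fold counts down ran from 303 to 458, 274 to 478 and 271 to 476. Those down by adjusted p ran from 1386 to 2355, 1836 to 2701 and 1673 to 2612. Among the G2/M genes, counts up by adjusted p ran from 0 to 1 for both drugs against DMSO, against DNR and against ML-792. The medians ran from -0.692 to -0.487 (DNR), -0.712 to -0.495 (both drugs against DMSO), -0.607 to -0.42 (both against ML-792), 0.00396 to 0.0598 (both against DNR), -0.136 to 0.0184 (ML-792 alone) and 0.0155 to 0.183 (interaction). At 1.5-fold 24, 23 and 20 genes fell with DNR, with both drugs, and with both against ML-792. The share of all tested genes at 1.5-fold was not counted, so nothing is read from these. The replicate block gave 3 genes up for both drugs against DMSO, 3 against DNR and 2 against ML-792. DNR and DMSO libraries were not taken as paired, because their lowest r was 0.0841. Their highest r was 0.452, and the 0.13 taken as paired for both drugs with DMSO lies close to the 0.0841. Same-numbered libraries were taken as paired for both drugs with DMSO and for both drugs with DNR. If both pairings hold, same-numbered DNR and DMSO libraries belong together too, which the check alone cannot settle. There the block gave 36 genes down and 1 up, adding CCNB2 (adjusted p = 0.00238), CDC25C (0.00123), FOXM1 (0.00436) and TACC3 (0.0305) below DMSO and NUSAP1 (0.159, 0.0446) above. Calls over all genes went from 2155 to 2989 down and from 1953 to 2778 up. The block changed no 2-fold call. Against DNR, both drugs raised 1 gene with DESeq2 (CDC20) and 2 without a count filter (CDC20 and UBE2C). Against ML-792, the count up by adjusted p was 0 with those groups alone and 0 with replicates 2 and 3 alone (MYBL2). With replicates 2 and 3 alone 7, 8 and 6 genes fell 2-fold, where 264, 226 and 203 of 13758 tested genes did. HMMR, at an adjusted p of 0.0491 after DNR, was also lost with limma voom, with library size only and with a filter at a mean of 1 CPM. Of the values of genes given per library, taken over the comparisons and alternatives, 1365 kept direction and side of the 2-fold rule, 18 lost the 2-fold call, 3 gained it and 0 reversed. Calls by adjusted p alone near the threshold came and went, and not all such changes are given beside the genes. With replicates 2 and 3 alone, the DNR calls of AURKA (adjusted p = 0.0562), CDC20 (0.0639), KIF2C (0.143) and KIF4A (0.106) were lost. Those of AURKB, BIRC5 and HMMR were lost there too, and 1026 of 13758 tested genes fell. HMMR after DNR was also lost without ML-792 replicate 1 or both-drug replicate 1 or 3, and AURKB with library size only. The cause was not tested.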
